A study of Homo sapiens with 8 samples.

Results

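The noradrenergic core transcription factors are the regulators that set the sympathetic neuron-like identity of neuroblastoma cells. The members described here are PHOX2A, HAND1, HAND2, GATA2, GATA3, ISL1, TBX2 and TFAP2B. They were taken by gene symbol from the table of bead signals, which gave 10 probes for the 8 symbols, out of 47322 probes and 31426 symbols. HAND2 and TFAP2B had more than 1 probe each. The question was which of these factors held their level and which fell when cells carried an shRNA against TRPM7, a cation channel fused to a kinase domain.

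RNA was measured on 8 single-colour Illumina bead arrays in 4 groups of 2 arrays. SH-SY5Y cells, a neuroblastic neuroblastoma line, carried either a scrambled shRNA (control) or TRPM7 shRNA, and so did cells of the epithelial-like line SH-EP2. Both shRNAs came in by lentivirus, so the controls share the transduction. The paper made stable knockdown cells of both lines with a previously characterized TRPM7 shRNA construct. For SH-EP2 it also used an independent TRPM7 shRNA as an off-target control, and it describes no such control for SH-SY5Y. The array labels name only TRPM7 shRNA, not the construct. The labels number the arrays of a group but do not say that they came from separate cultures, so the p-values measure the spread between these arrays, which may be technical.

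In the sympathetic lineage, BMP signals from the dorsal aorta switch on a set of factors that then activate each other and the genes for making noradrenaline. PHOX2A is a paired-type homeodomain protein, ISL1 is a LIM homeodomain protein, HAND1 and HAND2 are basic helix-loop-helix proteins, GATA2 and GATA3 are zinc finger proteins, TBX2 is a T-box protein and TFAP2B is an AP-2 protein. In neuroblastoma several of them bind each other's enhancers together, a loop known as the core regulatory circuit.

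Windows of 250 bases before a transcript start were read from RefSeq (GRCh38.p14) for 7 of the 8 members, TBX2 not being in the table. Of the 6 windows of GATA3 and the 2 of GATA2, the one at the annotated gene start was used, and the TFAP2B window belongs to a start 516 bases from that of the gene. The windows of ISL1, PHOX2A and HAND2 are shown, because ISL1 was the member called lower in SH-SY5Y cells, PHOX2A had the largest fitted decrease there, and the mean of HAND2 stayed nearly level. Sequences run 5′ to 3′ on the gene's strand, and capitals mark the letters GATAA or TTATC (GATA core), CANNTG (E-box, the site of helix-loop-helix dimers) and TAAT or ATTA (homeodomain core). Matches were sought on both strands, and matches may overlap.
ISL1, chr5:51383198-51383447, plus strand: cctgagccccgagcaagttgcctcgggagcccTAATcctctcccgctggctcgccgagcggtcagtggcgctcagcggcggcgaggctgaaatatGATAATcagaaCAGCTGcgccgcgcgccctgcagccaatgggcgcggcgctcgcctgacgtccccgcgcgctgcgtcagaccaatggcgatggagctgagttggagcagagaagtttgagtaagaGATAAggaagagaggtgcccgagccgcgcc
PHOX2A, chr11:72244177-72244426, minus strand: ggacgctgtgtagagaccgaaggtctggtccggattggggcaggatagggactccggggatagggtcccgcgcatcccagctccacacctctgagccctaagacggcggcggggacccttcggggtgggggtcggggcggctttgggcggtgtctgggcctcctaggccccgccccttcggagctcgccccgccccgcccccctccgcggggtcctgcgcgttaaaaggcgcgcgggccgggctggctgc
HAND2, chr4:173530230-173530479, minus strand: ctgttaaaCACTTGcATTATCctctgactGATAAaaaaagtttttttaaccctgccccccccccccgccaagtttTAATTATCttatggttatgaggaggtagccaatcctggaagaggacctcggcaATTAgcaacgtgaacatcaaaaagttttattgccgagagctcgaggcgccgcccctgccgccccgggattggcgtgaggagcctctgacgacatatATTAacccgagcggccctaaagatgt

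The HAND2 window held 3 GATA cores, 1 E-box and 5 homeodomain cores. The ISL1 window held 2 GATA cores, 1 E-box and 2 homeodomain cores. The PHOX2A window held none of the 3 kinds. The HAND1 window held 1 GATA core and the TFAP2B window held 3 homeodomain cores, while the GATA2 and GATA3 windows had no match to these letters. Among 35116 windows of the same length, 20.4% held a GATA core, 61.8% an E-box and 47.4% a homeodomain core. The AP-2 core GCCNNNGGC, present in 19.8% of windows, matched once each in HAND1, GATA2 and GATA3. The T-box core GGTGTG or CACACC, present in 14.2% of windows, was found in PHOX2A, GATA2, GATA3 and TFAP2B. These letters describe the windows and were not tested for binding.

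Signals were background-corrected, quantile-normalized over the 8 arrays and put on a log2 scale, and a probe was called detected on an array where its detection p was under 0.05. Between 19331 and 20904 probes were detected per array. The 1 TRPM7 probe was not detected on any array, with detection p-values from 0.0753 to 0.201, so the knockdown could not be read from these arrays. The paper measured TRPM7 mRNA in both lines separately, by quantitative PCR. Of the noradrenergic markers, 9 of 11 were detected on both SH-SY5Y control arrays and 2 of 11 on both SH-EP2 control arrays, and the brighter probe of TH, the rate-limiting enzyme of catecholamine synthesis, was not detected on any array. All 12 mesenchymal markers were detected on both SH-EP2 control arrays, and 6 of 12 on both SH-SY5Y control arrays. In control cells 10 of them were lower in SH-SY5Y than in SH-EP2. TWIST1 and VIM were higher there, by 1.24 and 0.19 on the log2 scale (limma, adjusted p = 1.3e-10 and 0.0356).

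Each of the 8 factors had 1 probe detected on all 4 SH-SY5Y arrays. The other HAND2 probe was below detection on all 8 arrays. The other TFAP2B probe stayed near background, with log2 signals of 3.53 and 2.94 in SH-SY5Y control and 3.45 and 3.28 with TRPM7 shRNA, and it gave a difference of 0.13 (95% interval -0.84 to 1.10). That interval holds both 0 and the difference of the brighter TFAP2B probe, and the values that follow are those of the brighter probes.

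In control cells all 8 factors were higher in SH-SY5Y than in SH-EP2 (limma, adjusted p from 3.23e-19 to 2.28e-13), where 14% of all probes were called higher. The difference was 4.02 for HAND2, 4.61 for GATA2, 4.88 for TBX2, 5.44 for ISL1, 6.42 for GATA3 and 7.82 for HAND1 on the log2 scale. HAND1 was detected on only 1 of the 2 SH-EP2 control arrays. PHOX2A and TFAP2B were not detected on either, so their folds are bounds of at least 44.8-fold and at least 113-fold higher in SH-SY5Y under this background model. The sizes depend on that model where SH-EP2 signals lie at the floor: without background correction the log2 differences were 2.25 for PHOX2A, 3.46 for TFAP2B, 3.05 for GATA3 and 4.48 for HAND1, against 6.27, 8.05, 6.42 and 7.82 with it. The PHOX2A bead signals themselves were 532 and 468 in SH-SY5Y control and 117 and 109 in SH-EP2 control. SH-EP2 cells still gave signals for ISL1, HAND2, TBX2 and GATA2 on all 4 arrays.

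**Figure D1:**
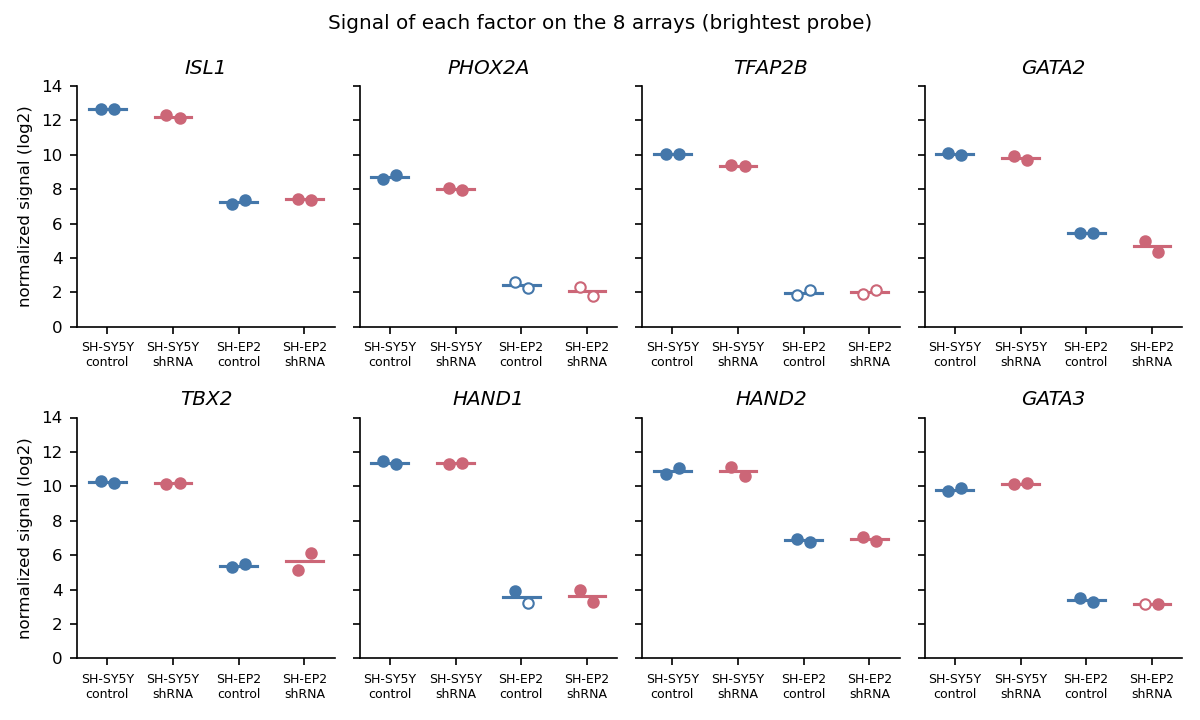
Normalized log2 signal of each factor's brightest probe on the 8 arrays, by cell line and shRNA, where points are arrays, bars are means of 2 arrays and open points mark arrays that did not detect the probe. Every factor was higher in SH-SY5Y than in SH-EP2. Within SH-SY5Y the ISL1, PHOX2A, TFAP2B, GATA2 and TBX2 points with TRPM7 shRNA sit below both control points, for TBX2 only narrowly.

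With TRPM7 shRNA in SH-SY5Y cells, ISL1 fell and was the only factor past the threshold in the fit of all 4 groups. Its log2 signals were 12.67 and 12.69 on the control arrays and 12.29 and 12.16 on the TRPM7 shRNA arrays, and the groups did not overlap. The mean went from 12.68 ± 0.0076 to 12.23 ± 0.091 (SD, n = 2 each), a difference of -0.45 (SE 0.098, 95% interval -0.66 to -0.25; limma, adjusted p = 0.0144), so the signal decreased by 27.0%. ISL1 takes part in the differentiation of sympathetic and sensory neurons. Among all probes 1.3% were called lower, and among the 19333 probes detected on both arrays of an SH-SY5Y group 3.15% were, against 1 of the 9 such member probes. The ISL1 call was lost under median scaling (-0.38, adjusted p = 0.0975), without the intensity trend in the variance (adjusted p = 0.456), in a per-probe test (adjusted p = 0.277), and on leaving out SH-SY5Y control replicate 1 (adjusted p = 0.0717), replicate 2 of the same group (adjusted p = 0.105) or replicate 2 of the TRPM7 shRNA group (adjusted p = 0.169). Its sign was the same in all 18 alternatives, with differences from -0.51 to -0.38.

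PHOX2A and TFAP2B gave larger fitted decreases than ISL1 but did not pass the threshold in the fit of all 4 groups. That fit gives each probe 1 spread over both lines, moderated toward an intensity trend, and no SH-EP2 array detected either factor. The PHOX2A SD was 0.17 in control and 0.076 with TRPM7 shRNA in SH-SY5Y, and 0.26 and 0.41 in SH-EP2. For TFAP2B the SDs were 0.034 and 0.073 in SH-SY5Y, and 0.18 and 0.16 in SH-EP2. The moderated SE of TFAP2B, 0.21, lay above all 4 of its SDs. Why these factors missed the threshold was not tested. PHOX2A, which drives noradrenergic neuron development, had log2 signals of 8.59 and 8.84 in control and 8.04 and 7.94 with TRPM7 shRNA. Both TRPM7 shRNA arrays lay below both controls, with a difference of -0.72 (SE 0.27, 95% interval -1.28 to -0.16; limma, adjusted p = 0.244). TFAP2B, an AP-2 factor of sympathetic and renal development, had 10.07 and 10.02 in control and 9.43 and 9.32 with TRPM7 shRNA. Its groups did not overlap either, with a difference of -0.67 (SE 0.21, 95% interval -1.12 to -0.23; limma, adjusted p = 0.137). Both factors passed the threshold in 4 of 18 alternatives: for PHOX2A the adjusted p was 0.0193 with the neqc background, 0.000375 with the normexp background, 6.4e-05 without background correction and 0.00486 with SH-SY5Y arrays fitted alone. For TFAP2B it was 0.00479, 5.6e-05, 9.4e-06 and 0.000787 in the same order. Neither changed sign.

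The GATA factors, which act in both blood and sympathetic development, did not pass the threshold in SH-SY5Y. GATA2 had log2 signals of 10.13 and 10.01 in control and 9.93 and 9.72 with TRPM7 shRNA, a difference of -0.24 (95% interval -0.62 to 0.13; limma, adjusted p = 0.688). Both of its TRPM7 shRNA arrays lay below both controls. GATA3 was the one factor with higher values, at 9.75 and 9.87 in control and 10.12 and 10.20 with TRPM7 shRNA. The GATA3 groups did not overlap, and the difference was 0.35 (95% interval -0.02 to 0.71; limma, adjusted p = 0.474). GATA3 passed only without background correction, where the adjusted p was 0.024.

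The remaining factors had small mean differences in SH-SY5Y with intervals on both sides of 0. HAND1 had log2 signals of 11.47 and 11.28 in control and 11.32 and 11.33 with TRPM7 shRNA, a difference of -0.05 (95% interval -0.50 to 0.41). HAND2, which is needed for sympathetic neurons to take on a noradrenergic character, had 10.70 and 11.06 in control and 11.14 and 10.59 with TRPM7 shRNA, a difference of -0.01 (95% interval -0.34 to 0.32). Its arrays overlapped fully and spread more than those of the other bright probes. TBX2, a T-box repressor, had 10.29 and 10.21 in control and 10.14 and 10.19 with TRPM7 shRNA, a difference of -0.09 (95% interval -0.53 to 0.36). As changes in signal, the intervals reached down to -29.2% for HAND1, -20.8% for HAND2 and -30.6% for TBX2, so smaller decreases could not be told from none in this fit. The intervals use the moderated spread shared by both lines, so their widths do not rank the factors by spread in SH-SY5Y. There the control and TRPM7 shRNA SDs were 0.13 and 0.0092 for HAND1, 0.25 and 0.39 for HAND2, and 0.056 and 0.037 for TBX2. In SH-EP2 they were 0.51 and 0.50, 0.11 and 0.19, and 0.11 and 0.72 in the same order.

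**Figure D2:**
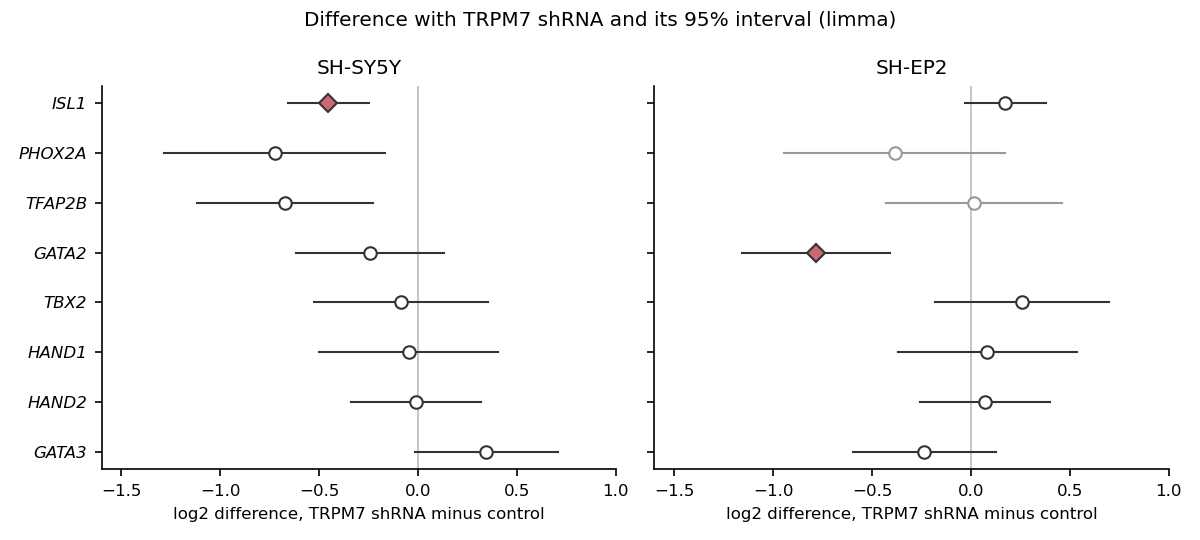
Log2 difference of each factor between TRPM7 shRNA and control with its 95% interval, in SH-SY5Y (left) and SH-EP2 (right), where filled diamonds passed the threshold and grey marks are probes not detected on any array of that line. ISL1 passed in SH-SY5Y at -0.45 and GATA2 in SH-EP2 at -0.78.

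Over the 8 bright probes in SH-SY5Y, 7 differences were below 0 and 1 above, although the signs of HAND1, HAND2 and TBX2 turned under median scaling. The median difference of the member probes was -0.16, beside 0.0048 over all probes and 0.022 over detected ones. At an unadjusted p under 0.05, 3 of the 9 detected member probes were lower, against 10.8% of detected probes. Both TRPM7 shRNA arrays lay below both controls for 5 of the 9 (ISL1, PHOX2A, TFAP2B, GATA2 and TBX2), against 22.9% of detected probes. In bulk RNA, fewer cells of a type and less RNA per cell cannot be told apart. The Schwann and glial markers were low throughout, with 1 of 7 detected on both arrays in each SH-SY5Y group and summed linear signals of 44.0 to 50.8 in control and 51.8 to 63.2 with TRPM7 shRNA. Of the mesenchymal markers 6 of 12 were detected on both arrays in each SH-SY5Y group. All 12 together summed to 16608 to 17915 in control and 14984 to 14985 with TRPM7 shRNA. The median difference of all 12 was 0.11, but 6 of them were detected on neither SH-SY5Y control array. The detected ones differed by -0.30 (VIM), 0.29 (CD44), -2.77 (SNAI2), 0.14 (TWIST1), -0.31 (COL1A1) and -0.0045 (THY1). Of all 12, 2 were called lower and none higher, SNAI2 (limma, adjusted p = 1.2e-08) and VIM (limma, adjusted p = 0.0176). VIM, the brightest of the list, named after its values were seen, had a mean of 13.68 in control and 13.38 with TRPM7 shRNA. The noradrenergic markers summed to 24814 to 25361 in control and 17226 to 18470 with TRPM7 shRNA, with a median difference of -0.04. Of these markers 2 were called lower and none higher. They were the brightest of the list, STMN2 (mean 13.48 in control and 12.89 with TRPM7 shRNA) and DBH (12.62 and 11.43). The part of these cell type markers in the members' differences was not tested.

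In SH-EP2 cells the only factor past the threshold was GATA2, at a level near background. Its log2 signals were 5.46 and 5.45 in control and 5.01 and 4.34 with TRPM7 shRNA, and the groups did not overlap. The difference was -0.78 (SE 0.18, 95% interval -1.16 to -0.41; limma, adjusted p = 0.0171), but the bead signals before correction were 159 and 151 in control and 149 and 136 with TRPM7 shRNA, beside array medians of 114 to 120. Of all probes 1.54% were called lower, and of the 18745 probes detected on both arrays of an SH-EP2 group 3.87% were, against 1 of the 6 such member probes. The GATA2 call was lost in 8 of 17 alternatives, including those that left out SH-EP2 control replicate 1, the other control array or replicate 2 of the TRPM7 shRNA group, and its difference ranged from -1.12 to -0.17.

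The other factors detected in SH-EP2 did not pass. ISL1 had log2 signals of 7.12 and 7.36 in control and 7.45 and 7.38 with TRPM7 shRNA, a difference of 0.17 (95% interval -0.03 to 0.38). HAND2 had 6.94 and 6.78 in control and 7.06 and 6.80 with TRPM7 shRNA, a difference of 0.07 (95% interval -0.26 to 0.40). TBX2 had 5.30 and 5.46 in control and 5.12 and 6.15 with TRPM7 shRNA, a difference of 0.26 (95% interval -0.18 to 0.70). The TBX2 arrays with TRPM7 shRNA lay on either side of the controls, and without TRPM7 shRNA replicate 1 the difference was 0.77 (limma, adjusted p = 0.0128). HAND1 and GATA3 signals were at the edge of detection, at 3.91 and 3.19 against 3.99 and 3.28 for HAND1 and 3.53 and 3.26 against 3.15 and 3.17 for GATA3. PHOX2A and TFAP2B were not detected on any SH-EP2 array.

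The ISL1 difference was itself different between the lines. The TRPM7 shRNA effect on ISL1 in SH-SY5Y minus that in SH-EP2 was -0.63 on the log2 scale (SE 0.14, 95% interval -0.92 to -0.34; limma interaction term, adjusted p = 0.0224), where 1.4% of all probes passed in either direction. It was the only member to pass, and it passed in 6 of 16 alternatives. The interaction was -0.69 for TFAP2B, 0.58 for GATA3 and 0.54 for GATA2, with adjusted p-values of 0.422, 0.399 and 0.473. For GATA2, which passed in SH-EP2 and not in SH-SY5Y, the lines were not shown to differ.

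**Figure D3:**
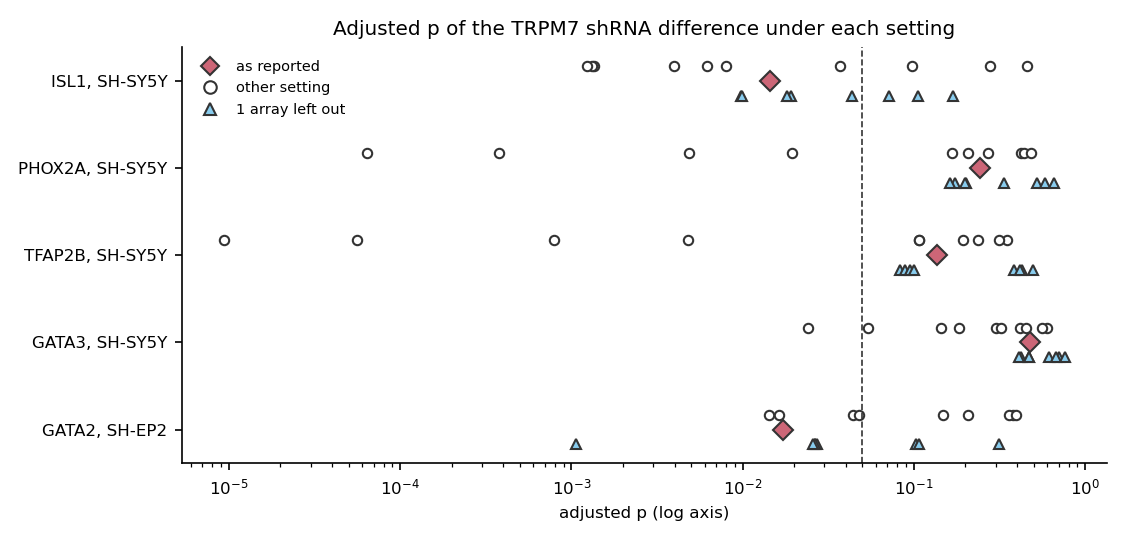
Adjusted p (log axis) of the TRPM7 shRNA difference of 5 factor and line pairs, as reported (diamonds), with another setting (open circles) and with 1 array left out (triangles), with the threshold of 0.05 dashed. ISL1 and GATA2 (in SH-EP2) lie on both sides of the threshold, and PHOX2A and TFAP2B pass it in 4 settings each but with no array left out.

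Genes around the core factors were counted in lists by each gene's brightest probe. In the per-probe test, which borrows no variance across probes, 1 of the 19 noradrenergic genes passed in SH-SY5Y and no gene of the other 6 lists did in either line, so the list calls that follow rest on the moderated variances. Of 12 other factors of the circuit, none passed in SH-SY5Y (limma; 1 lower and 3 higher at an unadjusted p under 0.05), with a list median of -0.08. KLF13, a Kruppel-like factor, differed by -0.32 in SH-SY5Y and fell by 0.92 in SH-EP2 (adjusted p = 0.00229), and HEY1, a Notch target, differed by 0.41 in SH-SY5Y. Of 12 paralogues of the members, none passed in either line (limma; 3 lower in SH-SY5Y and 1 lower in SH-EP2 at an unadjusted p under 0.05). Of these lower ones only TBX3 was detected in its line. GATA1 and TBX4 were not detected on any SH-SY5Y array, nor TBX5 on any SH-EP2 array. Among all the paralogues, 3 were detected on both SH-SY5Y control arrays. TBX3, the closest relative of TBX2, had a difference of -0.86 in SH-SY5Y (adjusted p = 0.0568), and its other probe was not detected there (difference -0.12). TFAP2A, the paralogue of TFAP2B, was not detected in SH-SY5Y but had a mean of 9.36 in SH-EP2 control.

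Partner proteins of the core factors moved in both directions. Of 14, 3 rose and 1 fell in SH-SY5Y, where 0.807% of all probes were called higher and 1.3% lower, and the list median was 0.13. LMO4, a LIM-only protein that shares the LDB adaptors with ISL1, rose by 0.71 (SE 0.11; limma, adjusted p = 0.000483), and LDB2, one of those adaptors, rose by 0.61 (SE 0.11, adjusted p = 0.00422). LMO2 was not detected in SH-SY5Y control and was at least 1.94-fold higher with TRPM7 shRNA (adjusted p = 0.0258). TCF4, an E protein that pairs with helix-loop-helix factors such as HAND2, fell by 0.60 (SE 0.10, adjusted p = 0.00147), while the E proteins TCF3 and TCF12 differed by -0.26 and 0.16 without passing. In SH-EP2 cells LDB2 fell by 0.50 (adjusted p = 0.0152), and its effect differed between the lines by 1.11 (interaction, adjusted p = 0.000461). LMO4 also differed between the lines, by 0.92 (interaction, adjusted p = 0.00167). The third partner to do so, named after its values were seen, was LMO1 at -0.82 (interaction, adjusted p = 0.0475), with -0.51 in SH-SY5Y and 0.30 in SH-EP2, neither past the threshold.

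Noradrenergic genes that lie downstream of these factors fell in part. Of 19, 3 fell and none rose in SH-SY5Y (limma; 5 lower and 1 higher at an unadjusted p under 0.05), beside 1.3% of all probes called lower and 0.807% higher, and the list median was -0.11. RET, the receptor tyrosine kinase for GDNF family ligands, fell by 2.86 (SE 0.27; limma, adjusted p = 1.3e-06), and all 3 of its probes were lower. DBH, which converts dopamine to noradrenaline, fell by 1.20 (SE 0.18, adjusted p = 0.000637), and STMN2, a neuronal microtubule regulator, fell by 0.58 (SE 0.13, adjusted p = 0.0223). CYB561 and CHRNA3, bright genes of the secretory granule and the ganglionic synapse, differed by 0.10 and -0.11 and did not pass. In SH-EP2 cells, CHRNA3 rose by 1.35 (adjusted p = 4.9e-06), MAOA, which breaks down noradrenaline, by 1.21 (adjusted p = 0.000408) and CHGB, a granin, by 1.01 (adjusted p = 0.011), against 1.48% of all probes called higher. These 3 probes lay near background in SH-EP2 control, with means of 3.49, 4.06 and 3.53, and the other CHRNA3 probe was not detected on any SH-EP2 array (difference 0.15). The only lower call there was CHGA, whose probe was not detected on any SH-EP2 array.

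**Figure D4:**
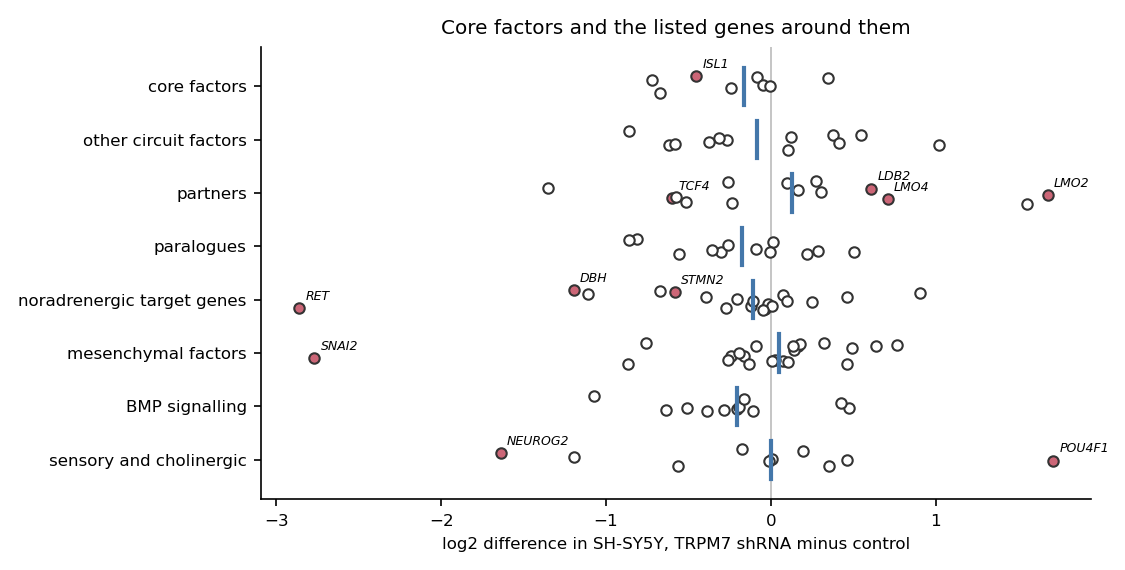
Log2 difference between TRPM7 shRNA and control in SH-SY5Y for the core factors and for each listed gene around them, where filled points passed the threshold and blue lines are list medians. The differences of the core factors lie between -0.72 and 0.35, while RET, SNAI2 and NEUROG2 lie at -2.86, -2.77 and -1.64.

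Of 22 factors of the mesenchymal state, 1 fell in SH-SY5Y. It was SNAI2, a repressor of epithelial genes in the neural crest, which fell by 2.77 (SE 0.18; limma, adjusted p = 1.2e-08) and by 1.39 in SH-EP2 (adjusted p = 6.7e-05). TWIST1 and IRF1, the brightest others by their mean over all 8 arrays, differed by 0.14 and -0.09 in SH-SY5Y. In SH-EP2, TWIST1 fell by 0.37 (adjusted p = 0.0117) and IRF1 rose by 0.50 (adjusted p = 0.045). None of 11 BMP signalling genes passed in either line (limma; 3 lower in SH-SY5Y and 2 lower in SH-EP2 at an unadjusted p under 0.05). The list median was -0.21 in SH-SY5Y, and SMAD5 and SMAD4, its brightest members, differed by -0.19 and -0.16.

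Of 10 sensory and cholinergic genes, 1 rose and 1 fell in SH-SY5Y. NEUROG2, a proneural helix-loop-helix factor of sensory neurons, fell by 1.64 (SE 0.14; limma, adjusted p = 6.25e-07). POU4F1, a POU homeodomain factor of sensory neurons that acts with ISL1, was not detected in SH-SY5Y control and was at least 2.06-fold higher with TRPM7 shRNA (adjusted p = 0.00834). SLC18A3 and TLX3, the brightest others, differed by 0.19 and -1.20 and did not pass (limma, adjusted p = 0.945 and 0.297). RET, DBH, NEUROG2, SNAI2 and POU4F1 were among the genes that the study itself singled out from these arrays in SH-SY5Y. The same was true of TWIST1 and SNAI2 in SH-EP2, and the paper listed POU4F1 among regulators affected in both lines. It also reported lower SNAI2 after TRPM7 knockdown in both lines by quantitative RT-PCR.

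Probes whose centred signals lay closest to each factor over the 8 arrays all followed the difference between the lines (Pearson's r over 0.99 across 8 arrays, as a description, since the lines set most of it). TFAP2B lay closest to FAM163A (root mean square distance 0.118 on the log2 scale), which had a difference of -0.88 in SH-SY5Y. ISL1 lay closest to NUDT11 (0.179), followed by STMN3, a stathmin, and PHOX2A lay closest to MYRIP (0.297). HAND1 lay closest to CHRNA3 (0.222), GATA2 to C1orf165 (0.209), GATA3 to PDE9A (0.148), HAND2 to MGC39900 (0.193) and TBX2 to SEMA6A (0.225). The list for TBX2 also held NBLA00301 (0.250), an older name of HAND2-AS1, the antisense RNA beside HAND2, with a difference of -0.52 in SH-SY5Y (adjusted p = 0.209).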

How the data were processed

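Illumina HumanHT-12 v4 arrays were hybridised with biotinylated cRNA, amplified from the RNA of 4 groups of 2 samples. The authors extracted signals with GenomeStudio 2011.1 and deposited bead intensities that were neither normalized nor background-subtracted, with a detection p-value for each probe. The genome build behind the probes is not given in the sources used here. From these, an RMA background model was fitted to each array, the 8 arrays were quantile-normalized, and log2 values were fitted with limma 3.58.1 in R 4.3.3 as 4 groups, with empirical Bayes moderation and an intensity trend. All 47322 probes entered the Benjamini-Hochberg adjustment of two-sided p-values, with a threshold of 0.05. An exact permutation test of 2 against 2 arrays cannot go below p = 0.333 and was not used. Where a group did not detect a probe on either array, the fold was bounded with the lowest signal among detected probes. The number of arrays limits the precision.

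Every member probe is reported. For each list and line, up to 6 genes past the threshold, with groups that did not overlap, and the 2 others with the highest mean over all 8 arrays were to be named. Some of these others were not given above, among them INSM2, PRRX1 and SMAD3 in SH-EP2. The members and lists were chosen with earlier results of these data known. Alternatives covered the background, scaling, detection filter, variance model, arrays fitted, replicate block and leaving out each array. The procedure was tested on simulated data. The planted changes were larger than the members' TRPM7 shRNA differences, so the simulation does not cover changes of their size.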

Additional observations from a re-analysis of the deposited data

Results flagged for a closer look

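The TRPM7 shRNA effect on ISL1 differed between the lines, at -0.63 on the log2 scale (SH-SY5Y minus SH-EP2; limma interaction term, adjusted p = 0.0224), from -0.45 in SH-SY5Y and 0.17 in SH-EP2. Both TRPM7 shRNA arrays lay below both controls in SH-SY5Y and above both in SH-EP2. Over the 16 alternatives the adjusted p ran from 0.0055 to 0.502, and the difference from -0.75 to -0.52.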

How the results depend on the processing

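Member probes called numbered 1 in SH-SY5Y, but 3 under neqc, normexp or a fit of each line alone, 4 if the background was not corrected, and 0 after median scaling or with no intensity trend or the per-probe test with 1 variance per probe over the 4 groups. Leaving out 1 array gave 0 to 1. In SH-EP2 the count of 1 became 0 with normexp, no background correction, no trend, the per-probe test and each line alone, and 0 to 2 with an array left out. For the difference between lines it became 2 under normexp, 3 if the background was not corrected, 0 after median scaling, with no trend or in the per-probe test, and 0 to 1 with an array left out. The 8 higher factors of SH-SY5Y control were called in all 16 alternatives. Over all probes, 999 were called in SH-SY5Y, against 64 without the trend and 50 in the per-probe test, and 1429 in SH-EP2, against 100, 103 and, fitted alone, 2587. Leaving out 1 array gave 622 (TRPM7 shRNA replicate 1 of SH-SY5Y) to 958 in SH-SY5Y, with 634 on dropping its control replicate 2, and 675 to 1596 in SH-EP2, where dropping any of its own 4 arrays gave at most 781.

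Replicate numbers did not pair the arrays (correlation of replicate differences -0.11 in SH-SY5Y and -0.0045 in SH-EP2). With the replicate block, 801 probes passed in SH-SY5Y and 1136 in SH-EP2, the member counts stayed at 1, and the ISL1 difference between lines had an adjusted p of 0.0578, so 0 members passed there. A crossed block in SH-SY5Y, chosen after seeing the data, called 1420 probes and 1 member.

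Small differences changed sign. With median scaling, which moved the median of detected probes in SH-SY5Y from 0.022 to 0.161, HAND1 was 0.047, HAND2 0.112 and TBX2 0.038 in SH-SY5Y and HAND2 0.045 between lines. Without background correction GATA2 was -0.043 between lines. With 1 array left out, the range in SH-SY5Y was -0.138 to 0.043 for HAND1 and -0.285 to 0.271 for HAND2. In SH-EP2 it was -0.279 to 0.446 for HAND1, -0.061 to 0.202 for HAND2 and -0.253 to 0.771 for TBX2. Between lines it was -0.492 to 0.232 for HAND1, -0.355 to 0.20 for HAND2 and -0.857 to 0.167 for TBX2. The cause was not tested.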
